A study of Mus musculus with 78 samples.

Results

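A set of 2413 H3K27ac regions ranked among the 10000 highest peaks of all 6 H3K27ac ChIP-seq libraries of mouse embryonic stem cells (mESCs), in vehicle and after 24 h of TRIM28 degradation. They were chosen from the 88050 peaks of the first DMSO library by taking its 10000 highest and keeping those that overlapped, by at least 1 bp, a peak among the 10000 highest of each of the other 5 libraries. Of these shared regions, 1626 lay within 1 kb of the start of a gene and are called promoter regions here, and the other 787 (32.6%) are called distal. The peak heights that chose the regions are the fold enrichment over background given by the authors' peak caller, and they are given below as a description with no test. The remaining 7587 regions of the first DMSO library's 10000 highest are the other regions set beside them, and no test was run between groups of regions.

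H3K27ac is acetylation of lysine 27 of histone H3, a mark laid down by p300 and CBP at active promoters and enhancers. Enhancers are stretches of DNA where transcription factors bind and from which they act on a promoter that can be far away, with the Mediator complex, of which MED23 is a subunit, bridging them to RNA polymerase II (RNAPII). In mESCs the factors OCT4, SOX2 and NANOG occupy the enhancers of pluripotency genes, and clusters of such enhancers with very high Mediator are called super-enhancers (SEs). TRIM28 is a corepressor that keeps endogenous retroviruses (ERVs) silent through H3K9me3.

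All treated cells were the TRIM28-FKBP line, V6.5 mESCs whose TRIM28 carries an N-terminal FKBP F36V degradation tag with mRuby2, grown in serum and LIF and depleted of feeder fibroblasts before sampling. dTAG-13 at 500 nM, which sends the tagged protein to the proteasome, was compared with DMSO vehicle. ChIP-seq had 3 libraries per group for H3K27ac and H3K9me3 and 2 per group for MED23 and RNAPII, all at 24 h. RNA-seq (RNA level, in TPM) had 3 libraries each in DMSO and at 2, 6, 24 and 96 h, TT-SLAM-seq (newly made RNA, in FPKM) had 3 each in DMSO and at 2, 6 and 24 h, and RNA-seq of neural progenitor cells (NPCs) in DMSO and of untreated parental mESCs without the tag had 3 each. The tagged line was raised from picked colonies, and the study calls its RNA-seq and TT-SLAM-seq replicates biological without saying whether they were separate cultures, so p-values measure the spread between these samples, which may be technical.

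The rule fixed a rank among the 10000 highest in every library, but neither the rank within that limit nor the height was constant. The median rank of promoter regions was 1503 in DMSO replicate 1 and 3595.5 in dTAG replicate 3. For distal regions it was 3588 and 1548. Replicates 1 and 3 of dTAG stood apart from the other 4 H3K27ac libraries before any comparison. They held 30259 and 45662 peaks against 88050 to 117475 in the others, and gene starts lay within 1 kb of 44.3% and 30.3% of their 10000 highest peaks against 58.9% to 62.9%. Of the 7587 other regions, 53.5% ranked lowest in dTAG replicate 3 and 32.1% in dTAG replicate 1, and 1242 were missed in dTAG replicate 3 alone. The set is therefore mostly limited by those libraries: chosen without dTAG replicate 3 it held 3655 regions, and without both 5365. ESC markers were all detected, with 8 of 8 at or above 1 TPM in DMSO (summed TPM from 4907 to 5329) and at 24 h (from 3314 to 3664), beside 4 of 8 feeder fibroblast markers in DMSO (91.8 to 97.3) and 5 of 8 at 24 h (73.6 to 88.3). RNA of the targeted gene, Trim28, was 622, 622 and 626 TPM in DMSO and 369, 365 and 382 TPM at 24 h, although the tag acts on the protein.

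Sequences of 5 distal regions nearest to pluripotency genes are shown so that the letters can be read beside the values that follow. Each window is 200 bases of GRCm38, plus strand, centred on the highest MED23 summit in the region in DMSO replicate 1. Capitals mark matches, on either strand, to the SOX core ACAATG, the OCT4 octamer ATGCAAA or the STAT3 site TTCNNGGAA. The window of the distal region nearest Lin28a, another pluripotency gene, held none of these matches and is not shown. The windows belong to the regions nearest Sox2, a core pluripotency factor (chr3:34757962-34758161, intergenic), Lefty1 and Lefty2, inhibitors of NODAL signalling (chr1:180924802-180925001 and chr1:180888780-180888979, intergenic), Jarid2, an accessory subunit of a Polycomb repressive complex (chr13:44732750-44732949, intron), and Dnmt3b, a de novo DNA methyltransferase (chr2:153643117-153643316, intergenic).
Sox2: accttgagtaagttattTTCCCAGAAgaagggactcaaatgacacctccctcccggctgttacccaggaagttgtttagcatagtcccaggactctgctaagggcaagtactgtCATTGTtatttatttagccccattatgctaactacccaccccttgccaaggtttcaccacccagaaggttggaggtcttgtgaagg
Lefty1: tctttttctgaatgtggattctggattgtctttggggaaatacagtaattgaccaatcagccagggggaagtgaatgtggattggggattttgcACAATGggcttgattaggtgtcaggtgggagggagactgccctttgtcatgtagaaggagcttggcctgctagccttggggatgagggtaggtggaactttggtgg
Lefty2: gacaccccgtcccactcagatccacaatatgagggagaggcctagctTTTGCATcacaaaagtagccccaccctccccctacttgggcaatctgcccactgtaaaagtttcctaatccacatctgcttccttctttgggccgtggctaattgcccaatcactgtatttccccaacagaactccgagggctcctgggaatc
Jarid2: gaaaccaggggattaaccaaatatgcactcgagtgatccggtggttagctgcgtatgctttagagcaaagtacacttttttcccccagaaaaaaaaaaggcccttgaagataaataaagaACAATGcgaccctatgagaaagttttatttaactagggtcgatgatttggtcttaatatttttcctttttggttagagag
Dnmt3b: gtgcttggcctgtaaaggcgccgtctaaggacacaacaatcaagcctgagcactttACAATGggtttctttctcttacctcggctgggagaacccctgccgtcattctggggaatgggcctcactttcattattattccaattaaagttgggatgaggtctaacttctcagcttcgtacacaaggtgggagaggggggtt

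Across the 663 distal regions with such a summit, 22.0% of 300-base windows held ACAATG against 8.08% of 2551 windows of the other distal regions. The octamer ATGCAAA was in 12.8% against 5.02%, TTCNNGGAA was in 8.75% against 3.18%, the AP-1 letters TGANTCA were in 21.3% against 12.3%, and the ESRRB letters AAGGTCA were in 8.30% against 4.66%. The GC box GGGCGG went the other way, with 19.5% against 46.3%, and the GC content of the windows was 48.7% against 61.3% (medians). In the 599 shared distal windows outside the study's listed ERVs the octamer was in 9.85% and TTCNNGGAA in 7.01%. There ACAATG was in 23.7%, TGANTCA in 23.4% and AAGGTCA in 8.35%. Matches of a few letters are a description, and base composition differs between these windows. Repeat content differs too: at least 80% of the sequence was repeat-masked in 42.1% of the other distal regions and 8.89% of the shared ones.

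The promoter regions are represented by Klf2, a pluripotency factor (chr8:72318862-72319086, plus strand), Tdgf1, a NODAL co-receptor (chr9:110946134-110946358, minus strand), and Atp6v0c, the proton channel subunit of the vacuolar ATPase and among the 10 highest shared promoters (chr17:24169654-24169878, minus strand). The RefSeq promoters (GRCm38.p6) are shown from 200 bases before to 25 after the gene start, with the GC box GGGCGG of either strand in capitals. The promoter of L1td1, read in the same way, held no GC box and is not shown.
Klf2: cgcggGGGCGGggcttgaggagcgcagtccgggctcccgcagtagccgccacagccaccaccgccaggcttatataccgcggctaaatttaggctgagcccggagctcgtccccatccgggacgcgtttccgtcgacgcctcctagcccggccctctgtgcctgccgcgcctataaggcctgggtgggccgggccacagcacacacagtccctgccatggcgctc
Tdgf1: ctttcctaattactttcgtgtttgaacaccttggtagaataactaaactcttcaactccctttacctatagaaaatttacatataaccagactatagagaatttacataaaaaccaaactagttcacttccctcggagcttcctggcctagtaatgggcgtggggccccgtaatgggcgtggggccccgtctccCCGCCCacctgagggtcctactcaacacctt
Atp6v0c: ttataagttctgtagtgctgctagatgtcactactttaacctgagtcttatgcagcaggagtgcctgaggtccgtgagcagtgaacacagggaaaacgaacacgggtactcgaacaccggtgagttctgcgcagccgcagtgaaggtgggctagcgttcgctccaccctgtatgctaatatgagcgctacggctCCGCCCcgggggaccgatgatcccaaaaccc

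RefSeq promoters of 300 bases were found for 1420 of the 1868 active genes with a shared region within 1 kb, each symbol counted once. The GC box was in 65.5% of them and in 65.6% of 8904 other active genes, and CCAAT was in 39.5% and 39.8%. The ETS letters CCGGAAG were in 23.7% against 17.7%, and the YY1 letters GATGGCG in 10.4% against 6.19%. The ratio of observed to expected CpG was 0.849 against 0.750 (medians).

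Shared regions were broad. The median width was 2103 bp for promoter and 2735 bp for distal regions, against 1252 and 1178 bp for the other promoter and distal regions. Together they covered 6.55 Mb, and the widest spanned 22740 bp. Of the distal regions, 390 had their summit in an intron, 343 between genes and 54 in an exon, and the nearest start of an active gene (mean of at least 1 TPM in DMSO) was 29.1 kb away at the median, against 53.4 kb for the other distal regions. An annotated transcript started within 1 kb of 148 of the 787 distal regions, starts that the gene table used by the rule does not hold.

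Height differed between promoter and distal regions and between libraries. The median of the promoter regions was 13.1, 14.0 and 13.6 in DMSO and 8.02, 15.3 and 5.48 after dTAG. The median of the distal regions was 9.61, 11.2 and 10.7 in DMSO and 8.01, 10.7 and 7.24 after dTAG. Promoter regions were higher than distal regions in all 3 DMSO libraries and in dTAG replicate 2, level in dTAG replicate 1, and lower in dTAG replicate 3, where the ratio of distal to promoter medians was 1.32 against 0.733 to 0.799 in DMSO. The log2 difference of dTAG from DMSO had a median of -0.58 for promoter and -0.29 for distal regions. With dTAG replicate 2 alone it was 0.17 and 0.05, so the sign of the median rests on dTAG replicates 1 and 3. The plot of region heights by library shows this spread.

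**Figure D1:**
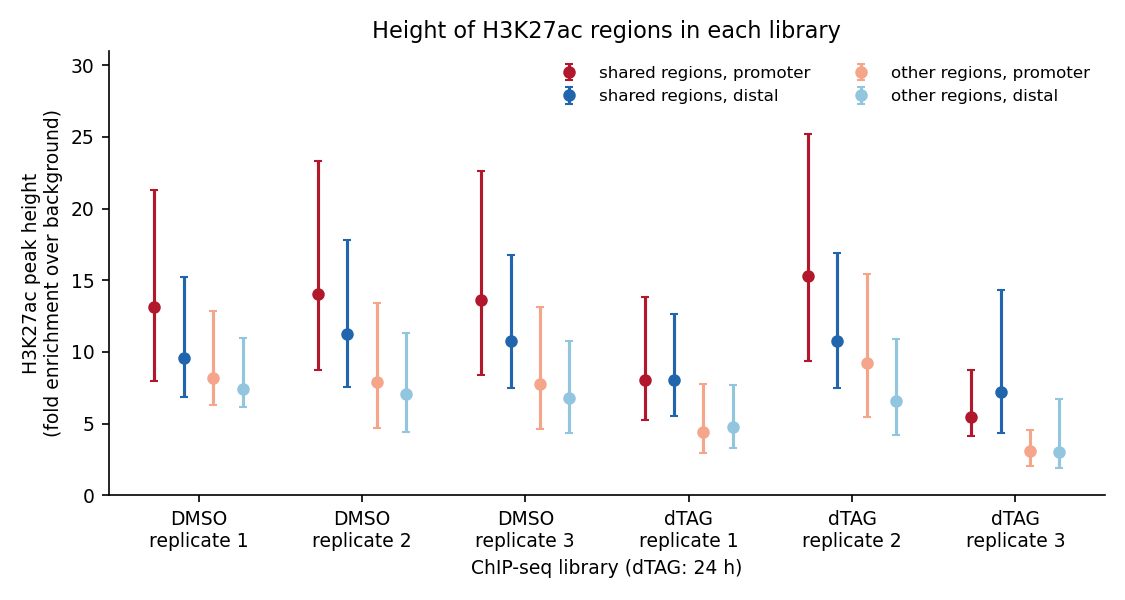
Height of H3K27ac regions (fold enrichment over background) in each of the 6 libraries. Points are medians and bars run from the 10th to the 90th percentile of the regions, for the 1626 promoter and 787 distal shared regions and for the 4348 promoter and 3239 distal other regions of the first DMSO library. The promoter median was level with the distal one in dTAG replicate 1 (8.02 and 8.01), below it in dTAG replicate 3 (5.48 and 7.24) and above it in the other 4 libraries.

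All 3 dTAG libraries were below all 3 DMSO libraries in 314 shared regions (223 promoter, 91 distal) and above them in 19 (2 promoter, 17 distal). Over the 8214 regions of the first DMSO library's 10000 highest with a peak in every library, the shares were 17.3% and 0.414%. Of those 19, 5 lay on MMETn and 2 on MMERVK elements, both ERVs. The region with the largest rise, chr5:26704018-26704728 between genes, had heights of 6.55, 10.2 and 6.93 in DMSO and 10.8, 16.4 and 16.1 after dTAG. The largest fall was at Cep57 and Fam76b (chr9:13825691-13827495), with 25.9, 34.5 and 19.6 in DMSO and 8.35, 18.5 and 4.48 after dTAG. At the limit of the rule, the region at the start of Tefm ranked 9997 in its lowest library (3.86 in dTAG replicate 3) and was kept, and that of Scnm1 and Lysmd1 ranked 10006 (3.86 in the same library) and was not.

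Of the 10 highest promoter regions, 6 lay at starts of snRNA or snoRNA genes. Gm22317, annotated as an snRNA (chr12:54738484-54739388), had heights of 42.1, 48.9 and 37.8 in DMSO and 12.2, 64.1 and 13.5 after dTAG. Others of the 10 highest included the regions of Snord118, a U8 snoRNA, of the U1 snRNA gene Rnu1b2, of Snord13 with Tti2, of Atp6v0c and Hspa8 (the constitutive HSC70 chaperone), of Neat1, the scaffold RNA of paraspeckles, 13042 bp wide and in an SE, and of the snRNA genes Gm25939 and Gm25360. Neat1 read 29.1, 22.1 and 30.5 in DMSO and 28.1, 19.5 and 13.4 after dTAG. Its lowest library was dTAG replicate 3.

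The U1 snRNA pairs with the start of introns in splicing, and its genes are nearly identical copies. The 120 bases upstream of 3 copies on chromosome 3 are shown because reads from them can be hard to assign. Capitals mark positions at which the 3 are not all the same.
Rnu1b1 (chr3:96360118-96360237, minus strand): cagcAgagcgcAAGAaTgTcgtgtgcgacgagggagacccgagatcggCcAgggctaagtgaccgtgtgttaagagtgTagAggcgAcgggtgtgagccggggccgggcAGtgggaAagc
Rnu1b2 (chr3:96373901-96374020, plus strand): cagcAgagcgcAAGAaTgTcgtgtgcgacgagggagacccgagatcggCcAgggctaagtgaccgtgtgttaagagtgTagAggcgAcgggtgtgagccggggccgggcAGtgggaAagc
Rnu1b6 (chr3:96460190-96460309, minus strand): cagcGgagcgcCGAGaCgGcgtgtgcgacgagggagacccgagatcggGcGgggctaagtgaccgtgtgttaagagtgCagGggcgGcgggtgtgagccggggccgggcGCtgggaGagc

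Rnu1b1 and Rnu1b2 were identical over the window, and Rnu1b6 matched each at 87.5% of bases, so heights at single copies are uncertain. Of the 48 promoter regions with an snRNA start, 37 had no protein-coding start. Their median width was 883 bp, and their median H3K27ac height was 20.6, 20.7 and 21.2 in DMSO and 10.7, 18.9 and 8.64 after dTAG. Their MED23 height had a median of 140.4 and 134 in DMSO and 51.9 and 50.2 after dTAG, and their RNAPII height 146 and 139 and then 76.9 and 71.1. Both lay above the medians of all promoter regions given below. Rnu1b6 itself, ranked 2 among all peaks of DMSO replicate 1, read 43.8, 34.4 and 21.2 in DMSO and 8.99, 18.9 and 7.90 after dTAG, with no overlap between the groups.

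Among distal regions the highest was chr7:126323986-126327596, between genes and 25.9 kb from Gm10155, at 20.1, 23.6 and 24.8 in DMSO and 15.5, 20.2 and 19.8 after dTAG. A 16362-bp region of an SE 11.2 kb from Mcl1, an antiapoptotic BCL2 relative (chr3:95661854-95678215), read 19.2, 17.8 and 23.6 and then 22.1, 20.7 and 12.1. These groups overlapped. The region of the Lefty2 window shown above (chr1:180886619-180890894) read 19.8, 21.8 and 17.0 in DMSO and 16.1, 22.5 and 8.26 after dTAG. A region 399 kb from the nearest active start (chr13:16829482-16832309) had MED23 heights of 132 and 138 in DMSO and 81.0 and 79.7 after dTAG.

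MED23 and RNAPII were not used to choose the regions and ask whether the machinery at them changed. The lists differ in length (63045 and 58925 MED23 peaks in DMSO against 15335 and 14551 after dTAG, and 19853 and 19194 RNAPII peaks against 8182 and 7689), so the 5000 highest of each library were taken. MED23 peaks lay on 45.7% and 44.8% of promoter regions in DMSO and on 25.8% and 25.3% after dTAG. On distal regions they lay on 71.3% and 71.9% in DMSO and on 74.0% and 74.5% after dTAG. The share thus fell at promoter regions and was slightly higher at distal ones, with no overlap between the groups in either. The fall was not particular to shared promoters: at the other promoter regions the share went from 21.2% and 20.9% to 8.85% and 8.56%. At the other distal regions it went from 26.1% and 26.4% to 22.1% and 22.3%. Over all shared regions the MED23 share went from 53.9% ± 0.26 to 41.4% ± 0.15 (SD, n = 2), a difference of -12.4 points (exact permutation test over libraries, two-sided p = 0.333, the smallest that 2 against 2 allows). In regions chosen without dTAG replicate 3 the distal share turned from 56.2% to 54.8%, so its direction depends on that library, whereas the promoter share still fell, from 38.1% to 20.5%.

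RNAPII peaks were on 74.7% and 75.6% of promoter regions in DMSO and on 66.8% and 62.8% after dTAG. On distal regions they were on 26.6% and 27.95% and then on 33.0% and 34.9%. Among the 5000 highest peaks the share was again lower at promoter and higher at distal regions. Over all shared regions the difference was -4.79 points (exact permutation p = 0.333). At the other promoter regions it went from 51.15% and 50.9% to 34.9% and 31.7%, and at the other distal ones from 12.0% and 12.3% to 10.1% and 9.66%. RNAPII peaks of any height fell at both kinds of shared region. They lay on 97.5% and 97.5% and then 84.7% and 81.4% of promoter regions. On distal regions the values were 64.2% and 63.3% and then 41.6% and 40.2%. In regions chosen without dTAG replicate 3, the 5000 highest peaks lay on a mean of 25.0% and then 28.4% of distal regions. Without dTAG replicates 1 and 3 this share was 25.2% in both groups. The distal rise thus depends on those libraries and on the number of peaks taken. With the RNAPII summit required inside the region the difference over all shared regions was -0.02 points. Summed width of the 5000 highest MED23 peaks was 8.67 and 9.04 Mb in the DMSO libraries against 3.63 and 3.23 Mb in the dTAG libraries, and the part of peak width in these shares was not tested.

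**Figure D2:**
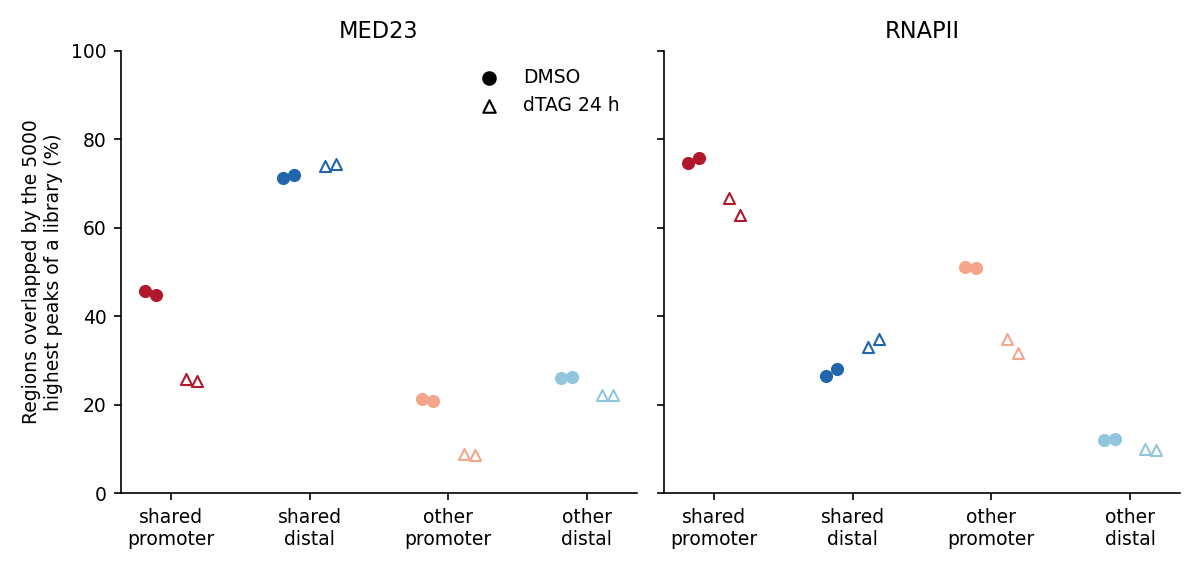
Percent of shared and other H3K27ac regions, promoter and distal, overlapped by the 5000 highest MED23 (left) or RNAPII (right) peaks of each library. Filled circles are the 2 DMSO libraries and open triangles the 2 libraries after 24 h of dTAG. MED23 fell from 45.7% and 44.8% to 25.8% and 25.3% at shared promoter regions and stayed above 71% at shared distal ones.

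Height told the same order. The median MED23 height, with no peak set to 1, was 14.1 and 13.6 at promoter regions in DMSO and 4.20 and 4.07 after dTAG, and at distal regions 24.5 and 23.9 and then 10.5 and 10.8. Distal regions thus exceeded promoter regions 1.74- and 1.76-fold in DMSO and 2.50- and 2.64-fold after dTAG within the same libraries. A MED23 peak of any height was called on 100% of promoter regions in DMSO and on 76.7% and 73.4% after dTAG, and on 99.2% and 99.4% and then 91.7% and 90.5% of distal regions. At the other regions these shares after dTAG were 42.3% and 37.8% for promoter and 40.4% and 39.1% for distal. Peak heights carry no spike-in scaling, so a change of all heights and a change of library quality cannot be told apart.

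Of the 231 SEs in the study's list, 73 held a shared region and 46 a distal one, and 53 of the 787 distal regions (6.73%) lay in an SE against 2.87% of the other distal regions. In the 86 shared regions inside SEs, MED23 peaks lay on 95.3% and 96.5% in DMSO and on 82.6% and 81.4% after dTAG (exact permutation p = 0.333). The distal regions outside SEs went from 69.5% and 70.0% to 73.0% and 73.6%. Median MED23 height of the distal SE regions was 42.5 and 43.8 in DMSO and 12.8 and 14.0 after dTAG, beside 24.5 and 23.9 and then 10.5 and 10.8 over all distal regions.

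ERV sequence was present in a small group of the distal regions. Of 445 MMETn copies in the study's list, 63 held a distal region, and these were 57 of the 787 (7.24%). Over promoter and distal regions together, 62 of the 2413 shared regions (2.57%) and 24 of the 7587 others (0.316%) lay on MMETn. Regions on MMETn had H3K27ac medians of 9.49, 10.4 and 10.8 in DMSO and 8.64, 10.3 and 9.46 after dTAG, closer between groups than the distal regions as a whole. H3K9me3 peaks of any height were called on 84.2%, 82.5% and 78.9% of them in DMSO and on 21.1%, 57.9% and 54.4% after dTAG, beside 20.3%, 21.3% and 18.2% and then 1.53%, 6.96% and 6.41% of distal regions on neither ERV. The lowest of the dTAG values came from dTAG replicate 1, which had 11474 H3K9me3 peaks against 104579 to 147611 in the other 5 libraries, and the part of list length in these shares was not tested. Multi-copy sequence makes single positions uncertain. Over all shared regions, the 10000 highest H3K9me3 peaks of each library lay on 1.95% ± 0.42 in DMSO and 0.870% ± 0.26 after dTAG (SD, n = 3, exact permutation p = 0.1, the smallest that 3 against 3 allows).

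Genes at the shared promoter regions leaned to high RNA levels. The 1626 regions lay at the starts of 2376 genes, of which 1873 were active and 1627 protein coding, with 132 snoRNA, 61 miRNA and 50 snRNA genes, and 570 regions held starts on both strands. Median TPM in DMSO was 49.6 for active promoter genes and 22.8 for the 677 genes nearest a distal region, against 15.6 for all 15702 active genes. Ranked by RNA level into 10 equal groups of active genes, 3.31% had a promoter region in the lowest group and 34.9% in the highest. For genes nearest a distal region it was 4.01% and 6.24%. The plot of shared regions against RNA level gives the steps between.

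**Figure D3:**
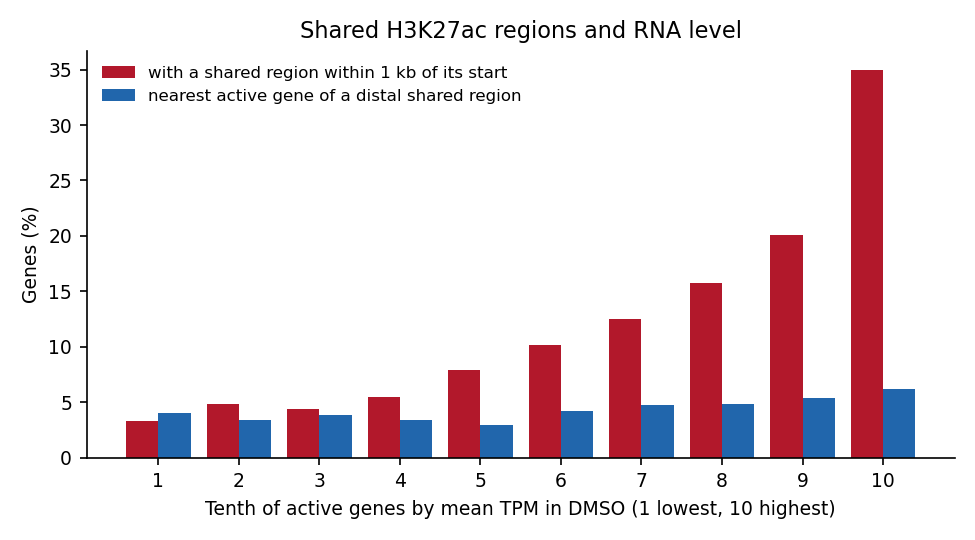
Percent of active genes with a shared H3K27ac region within 1 kb of the start (red bars) and of active genes nearest to a distal shared region (blue bars), in 10 equal groups of the 15702 active genes by mean TPM in DMSO. Red bars rise from 3.31% to 34.9%, and blue bars stay between 2.99% and 6.24%.

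After 24 h of dTAG, RNA of few of these genes changed by more than 2-fold at an adjusted p below 0.05 (limma on log2(TPM + 0.5), Benjamini-Hochberg over 17922 genes). Of 1971 tested promoter genes, 108 were higher (5.48%, against 10.1% of all genes tested and 7.84% of active genes) and 27 lower (1.37%, against 2.01% and 2.26%). Of 676 tested genes nearest a distal region, 56 were higher (8.28%) and 14 lower (2.07%), beside 7.84% and 2.26% of active genes. The 3 libraries of each group did not overlap in any of these called genes, which adds little to the calls, since the same libraries gave both. The median log2 change was -0.05 and 0.07 for promoter and distal genes, against 0.13 over all genes. These splits depend on scaling: with each library centred on its median gene, which shifts log2 changes at 24 h by 0.29, the calls were 44 higher and 110 lower for promoter genes, 35 and 38 for distal genes and 886 and 919 for all. In bulk samples, fewer cells of a type and less RNA per cell cannot be told apart.

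Earlier and later times framed this. At 2 h, 3 promoter genes were higher and 2 lower, and 1 distal gene was higher and 0 lower by limma, beside 0.251% and 0.123% of all genes. An unadjusted p below 0.05 was reached at 2 h by 223 of 676 distal genes, beside 5147 of all 17922 genes. At 6 h the counts were 9 higher and 0 lower for promoter genes and 3 and 0 for distal genes by limma, beside 0.776% and 0.19% of all genes. At that time 1057 of 1971 promoter and 325 of 676 distal genes had an unadjusted p below 0.05, beside 7762 of all 17922 genes. At 96 h, 175 promoter genes were higher and 277 lower, and 123 and 125 distal genes, beside 20.3% and 12.4% of all genes and 17.5% and 13.7% of active genes. Promoter genes thus had 8.88% higher and 14.1% lower, and distal genes 18.2% and 18.5%. Centred libraries gave 112 and 444 at promoter genes and 91 and 169 at distal genes.

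**Figure D4:**
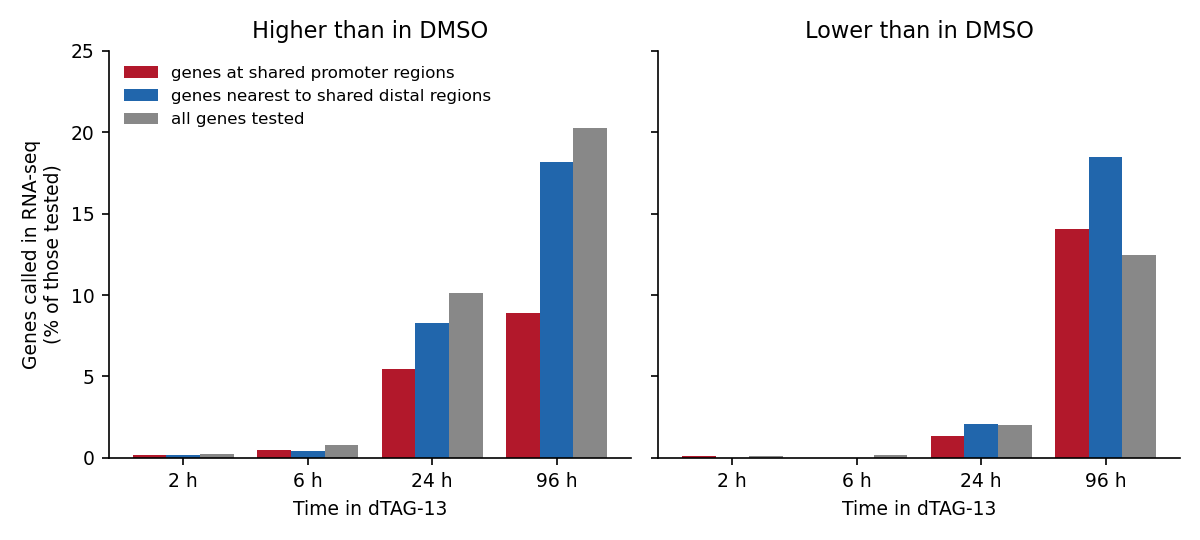
Percent of tested genes called higher (left) or lower (right) than in DMSO in RNA-seq at 2, 6, 24 and 96 h of dTAG-13 (limma, more than 2-fold, adjusted p below 0.05), for genes at shared promoter regions, genes nearest to shared distal regions and all genes. At 24 h the promoter genes have 5.48% higher and 1.37% lower, against 10.1% and 2.01% of all genes.

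Newly made RNA gave few calls. In TT-SLAM-seq at 24 h, 23 of 2053 promoter genes were higher and 18 lower, and 19 of 499 distal genes were higher and 4 lower (2.49% and 0.906% of all 13357 genes and 1.5% and 0.594% of active genes, limma on log2(FPKM + 0.5)). Of 1798 promoter genes tested in both assays, both called 8 higher and 6 lower, and of 499 distal genes 11 and 2, beside 86 and 31 of all 10340 genes tested in both. With a pseudocount of 0.1 the calls were 64 and 55 for promoter and distal genes, and with 1 they were 28 and 9. Without DMSO replicate 3 the promoter calls were 24 higher and 37 lower, and without DMSO replicate 1 they were 21 and 12. Centred libraries gave 11 higher and 41 lower and 7 and 9. At 2 h, 2 promoter genes were higher and 1 distal gene lower (0.127% and 0.0973% of all genes). At 6 h, 0 promoter genes were higher and 2 lower (0.374% and 0.195% of all genes). The 6 h calls for distal genes were 0 in both directions by limma, with 211 of 499 genes at an unadjusted p below 0.05. So had 539 of 2053 promoter genes and 3544 of all 13357 genes.

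The miR-290 to miR-295 cluster accounted for 7 of the 18 falls at 24 h in TT-SLAM-seq. It encodes the most abundant miRNAs of mESCs, which share a seed family that promotes the cell cycle of stem cells. Its genes are covered by a promoter region of 18546 bp (chr7:3203178-3221723) with heights of 20.4, 22.5 and 11.7 in DMSO and 8.36, 12.0 and 4.95 after dTAG, beside a distal region at chr7:3200184-3202945. MED23 height in the promoter region was 87.2 and 94.8 in DMSO and 21.0 and 18.5 after dTAG, and RNAPII height 40.6 and 37.6 and then 19.5 and 15.4. The 3p arms listed in RefSeq follow, with the seed (bases 2 to 8) in capitals, to show what the precursors encode. Mature miRNAs were not measured.
miR-290a-3p: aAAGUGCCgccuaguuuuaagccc
miR-291a-3p: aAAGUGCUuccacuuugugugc
miR-294-3p: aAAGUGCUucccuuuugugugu
miR-295-3p: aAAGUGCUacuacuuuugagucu
miR-291b-3p: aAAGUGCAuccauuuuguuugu
miR-293-3p: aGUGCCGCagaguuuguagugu

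miR-291a-3p, miR-294-3p and miR-295-3p share the seed AAGUGCU, those of miR-290a-3p and miR-291b-3p differ from it in the last base, and miR-293-3p has another seed. In TT-SLAM-seq the precursor gene Mir293 had 210.0, 188 and 175 FPKM in the DMSO libraries against 51.6, 33.3 and 58.6 FPKM after 24 h (log2 change -2.02 ± 0.19, SE, limma adjusted p = 8.04e-05). All 7 plus-strand genes fell at 24 h, by log2 changes from -1.11 to -2.02, and none was called at 2 or 6 h by limma, where 1 gene, Mir291a, had an adjusted p of 0.0390 at 6 h with a log2 change of -0.86. In RNA-seq, Mir294 read 12.7, 10.7 and 30.8 TPM in DMSO and 2.37, 3.91 and 4.96 TPM at 24 h (log2 change -2.02 ± 0.38, limma adjusted p = 0.000279). Of the 27 promoter genes lower at 24 h, 6 belonged to the cluster, all 6 that were tested, and at 96 h and in NPCs Mir293, Mir294 and Mir295 were at or close to 0. The genes lie on a single primary transcript, so they are not independent, and members beyond Mir290a, Mir293, Mir294 and Mir295 were added after their values were seen. Mir290b and Mir292b on the minus strand are named only.

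**Figure D5:**
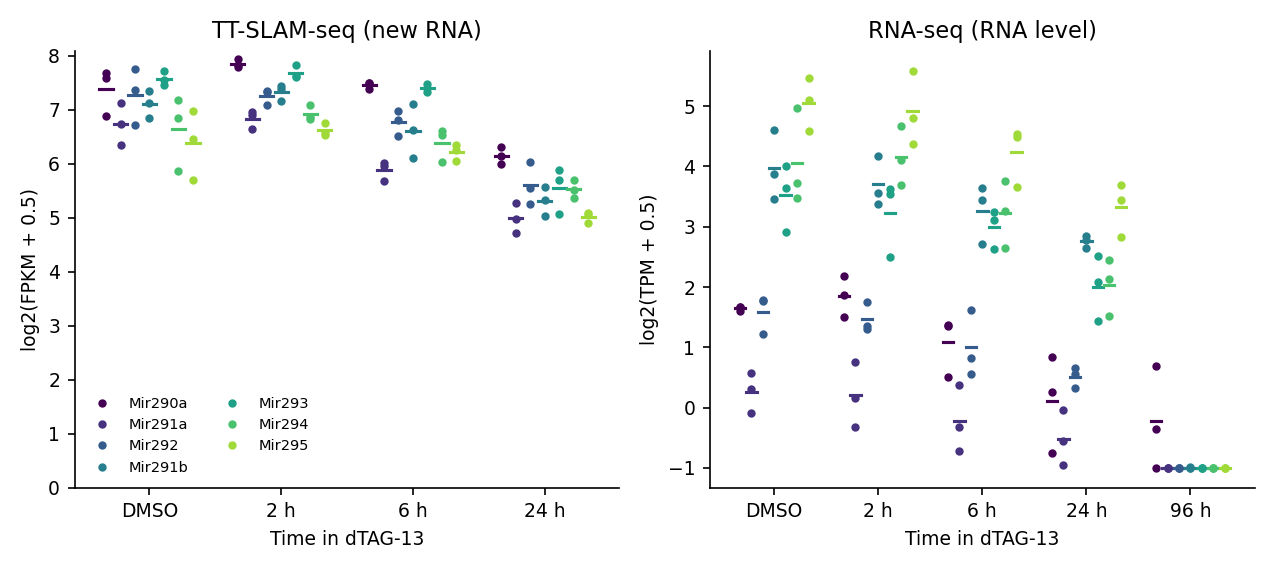
Precursor genes of the miR-290 to miR-295 cluster, plus strand, in TT-SLAM-seq as log2(FPKM + 0.5) (left) and in RNA-seq as log2(TPM + 0.5) (right), by time in dTAG-13. Points are the 3 libraries of a group and short lines their means. All 7 genes are lower at 24 h than in DMSO in TT-SLAM-seq, with log2 changes from -1.11 to -2.02.

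Some pluripotency genes had a shared region, and 3 of them were lower by more than 2-fold at 24 h. Of 20 core and naive factors, Klf2 and Sall4 had a promoter region and Sox2 and Lin28a a distal one. Of 20 other pluripotency markers, Dppa5a, Fbxo15, Gdf3, L1td1 and Tdgf1 had a promoter region and Dnmt3b, Jarid2, Lefty1 and Lefty2 a distal one. At 24 h, 0 of the 4 core factors and 3 of the 9 markers were called lower by limma, beside 2.01% of all genes and 2.26% of active genes. Median log2 changes were -0.66 and -0.77 against 0.13 over all genes, so falls under the 2-fold limit were not confined to the called genes. L1td1, an RNA-binding protein of mESCs, read 758, 712 and 698 TPM in DMSO and 288, 300.1 and 301 TPM at 24 h (log2 change -1.28 ± 0.05, limma adjusted p = 1.28e-10). Jarid2 read 216, 219 and 200.0 TPM and then 94.0, 90.3 and 87.3 TPM (-1.22 ± 0.04), and Dnmt3b 448, 451 and 438 TPM and then 211, 211 and 228 TPM (-1.04 ± 0.04). In each the groups were far apart. Centring libraries took Sall4, Gdf3 and Fbxo15 past the threshold too, at -1.16, -1.06 and -1.11.

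MED23 height at the Dnmt3b region was 20.5 and 10.4 in DMSO and 5.32 and 4.74 after dTAG. The Lefty1 region (chr1:180922250-180926492, in an SE) read 319.7 and 295 in DMSO and 61.3 and 60.8 after dTAG. The Sox2 region (chr3:34755406-34763184, 109 kb from the gene, in an SE) read 46.3 and 54.5 and then 9.96 and 10.3, and the Jarid2 region lost its peak, from 24.4 and 22.7. H3K27ac at the Sox2 region was 6.77, 12.2 and 13.6 in DMSO and 7.30, 8.69 and 4.52 after dTAG, and the groups overlapped. Sox2 RNA was 212, 206 and 195 TPM in DMSO and 146, 126 and 122 TPM at 24 h (-0.64 ± 0.06), and its TT-SLAM-seq value 23.3, 21.9 and 16.4 FPKM and then 9.42, 9.50 and 11.8 FPKM (-0.96 ± 0.17, limma adjusted p = 0.00204), under the 2-fold limit in both. Of 15 LIF and BMP targets, Junb and Smad7 had a promoter region and Pim1 had 2 distal ones, and Junb rose in TT-SLAM-seq, from 5.44, 4.91 and 3.85 FPKM to 10.6, 10.5 and 16.5 FPKM (1.29 ± 0.19, limma adjusted p = 0.000614), with RNA at 49.4, 50.8 and 48.6 TPM and then 46.1, 47.7 and 51.5 TPM.

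Housekeeping lists were also looked at. Of 90 cytosolic ribosomal protein genes, 59 had a promoter region and 1 a distal one, and 0 of the 60 were called at 24 h in RNA-seq or TT-SLAM-seq by limma, with log2 changes from -0.42 (Rps15a) to 0.00 (Rpl31) in RNA-seq and a median of -0.19. Their 60 regions were 3380 bp wide at the median, with heights of 16.0, 16.7 and 16.5 in DMSO and 8.73, 18.0 and 6.04 after dTAG. Of 39 proteasome subunits 12 had a shared region, of 52 translation initiation factors 19, of 42 Mediator and RNAPII subunits 8 and of 54 respiratory chain subunits 14. None of these was called in either assay at 24 h by limma. Medians in RNA-seq were -0.48, -0.56, -0.22 and -0.30, against 0.13 over all genes. Of all genes tested at 24 h, 10.1% were higher and 2.01% lower in RNA-seq, and 2.49% and 0.906% in TT-SLAM-seq. At such low shares, 0 calls in TT-SLAM-seq says little for any of these lists, the ribosomal one included. Psmc5, a proteasome ATPase, had a log2 change of -0.84, and Eif4a2, an initiation helicase, of 0.82, both under the 2-fold limit. Lists of neural, endoderm, 2-cell and feeder fibroblast genes had 0 genes with a shared region out of 15, 15, 13 and 15. Of these genes 6, 6, 13 and 9 were active, and only active genes could be nearest to a distal region. Over all 15702 active genes, 1873 had a promoter region and 677 were nearest to a distal one, so 0 in such short lists says little.

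The largest rises at promoter regions included Ccng2, a cyclin of growth arrest, which read 5.56, 5.91 and 7.09 TPM in DMSO and 29.6, 35.6 and 30.8 TPM at 24 h (log2 change 2.28 ± 0.11, limma adjusted p = 7.76e-10). Its region (chr5:93266242-93268959) read 32.7, 30.5 and 17.5 in DMSO and 11.5, 20.0 and 9.50 after dTAG, and MED23 there 17.3 and 16.3 and then 4.21 and 3.599. The H3K27ac groups overlapped, and MED23 was lower in both dTAG libraries. Got1l1, Zc3h6, 4933433G15Rik and Mir99b were the other 4, with log2 changes from 2.09 to 2.38. The largest fall was listed for the snoRNA gene entry ENSMUSG00000105884.1 (Gm22711), at 2.53, 2.87 and 2.80 TPM in DMSO and listed at 0 in all 24 h libraries, as it was in all 2 h libraries. Its TT-SLAM-seq values were 51.2, 40.9 and 34.0 FPKM and then 33.2, 21.8 and 33.4 FPKM, and did not pass the test. The annotation holds another entry of the same symbol at nearly the same bases, ENSMUSG00000080540.2 (Gm22711), which was called higher at 24 h (log2 change 1.77 ± 0.39, limma adjusted p = 0.001015). Reads of these overlapping entries cannot be told apart, so no direction is given for the snoRNA.

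Among genes nearest a distal region, Cyp2b23, a cytochrome P450 with close relatives in the genome, read 2.51, 2.76 and 2.58 TPM in DMSO and 30.5, 36.9 and 36.8 TPM at 24 h (log2 change 3.49 ± 0.11, limma adjusted p = 1.59e-11). Both of its distal regions lay on MMETn. The region 92.3 kb away (chr7:26593216-26594976) was 6.55, 6.70 and 9.06 in DMSO and 10.4, 13.3 and 15.8 after dTAG, with no overlap, and the other, 19.8 kb away, was 10.9, 7.82 and 11.1 and then 7.19, 9.72 and 7.41. Fos, an immediate early AP-1 factor with a promoter region and 2 distal ones, read 5.64, 5.09 and 6.06 TPM and then 27.3, 24.8 and 22.9 TPM (2.06 ± 0.09). Fos rose in TT-SLAM-seq too, from 2.55, 2.98 and 1.84 FPKM to 12.6, 13.5 and 20.3 FPKM (2.42 ± 0.24). Its distal regions lie side by side, and the highest MED23 peak on either read 130.3 and 138 in DMSO and 59.1 and 75.0 after dTAG. AC110573.1, Rasd2 and Prnp, the prion protein gene, were the other 3 of the largest rises, and the largest falls were Csn3, a casein, at 3.48, 3.37 and 5.25 TPM and then 0.490, 0.457 and 0.699 TPM (-2.09 ± 0.16), with Arid5b, Mir290a, Pou4f2 and 4930444M15Rik. Arid5b, a DNA-binding cofactor, went from 51.6, 50.0 and 50.2 TPM to 18.3, 17.0 and 16.1 TPM (-1.54 ± 0.05).

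Genes nearest a distal region on MMETn or MMERVK numbered 59, and 11 (18.6%) were higher and 2 lower at 24 h. Of 626 genes nearest a distal region on neither, 46 (7.35%) were higher and 12 lower. The first group includes Olig1, a neural transcription factor (log2 change 1.77), Casp8, the initiator caspase of death receptors (1.57), and Aass, a lysine-degrading enzyme (1.61). The regions on ERVs were farther from their genes, at a median of 56.1 kb against 27.4 kb, and the difference between these shares was not tested.

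In 10 cases an active gene was the nearest to 3 distal regions: Arl4c, Cbfa2t2, Kcnt2, Mthfd1l, Rbpms, 2700046G09Rik, 4930444M15Rik, Gm13335, Gm15432 and Mageb16-ps2. Mthfd1l, a mitochondrial folate enzyme, had them at 31.8, 134 and 136 kb and read 82.9, 83.8 and 81.8 TPM in DMSO and 62.9, 60.7 and 62.6 TPM at 24 h (-0.41 ± 0.05), and 21.0, 22.0 and 23.9 TPM at 96 h. Arl4c, a small GTPase, rose to 298, 295 and 289 TPM at 96 h from 74.0, 74.4 and 72.6 TPM in DMSO (1.99 ± 0.04), with 125, 114 and 121 TPM at 24 h. Rbpms, an RNA-binding protein, also had a promoter region. Its TT-SLAM-seq value was 3.46, 3.22 and 3.38 FPKM in DMSO and 7.15, 7.17 and 6.15 FPKM at 24 h (0.92 ± 0.11, limma adjusted p = 0.000204, under the 2-fold limit), while RNA was 197, 198 and 198 TPM in DMSO and 171, 166 and 157 TPM at 24 h.

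Whether the genes are tied to the stem cell state was read from NPCs, in RNA-seq that shares the DMSO libraries with the time course. Of 1922 tested promoter genes, 258 (13.4%) were higher and 285 (14.8%) lower in NPCs than in ESCs, against 25.9% and 20.7% of all 17458 genes and 19.8% and 22.7% of active genes. Of 666 genes nearest a distal region, 117 (17.6%) were higher and 202 (30.3%) lower, and within 50 kb 59 and 157 of 444 (35.4% lower). More distal genes were thus lower than higher in NPCs. Only genes active in these same DMSO libraries could be nearest to a distal region, so a gene off in ESCs and on in NPCs could not enter. Active genes as a whole also had more lower (22.7%) than higher (19.8%), and the part of this filter was not tested. Centred libraries, which shift log2 values by 0.40, gave 120 and 482 for promoter genes and 71 and 259 for distal genes, beside 3302 and 4910 for all.

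All 9 pluripotency markers of the second list were lower in NPCs, and so were Klf2, Sall4 and Lin28a. These genes were listed for their link to pluripotency, so such falls say little about the shared regions. L1td1 read 0.186, 0.485 and 0.321 TPM in NPCs, and Gdf3 was listed at 0 in all 3. Sox2 was the exception, at 430.0, 413 and 423 TPM (log2 change 1.04 ± 0.03, limma adjusted p = 6.59e-10), a level that parental mESCs had too (419, 413 and 413 TPM). Junb, Smad7 and Pim1 were lower as well, by log2 changes of -3.78, -3.57 and -4.18. Of the 60 ribosomal protein genes 1, Rpl4, was lower (log2 change -1.08 ± 0.02). Parental mESCs differed from DMSO at some of these genes, as at Klf2 (476, 467 and 463 TPM against 117, 127 and 120). The tagged line, the vehicle and the making of the libraries cannot be told apart in this difference. Whether the NPC comparisons carry such a difference too was not tested.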

How the data were processed

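The authors deposited peaks per library in MACS2 layout, with fold enrichment over background (a ratio), a height score and -log10 p and q. They deposited StringTie tables with TPM and FPKM per gene and mean coverage signal, and a TT-SLAM-seq FPKM table. The submitters' processing notes name cutadapt 2.4, BWA, SAMtools, GATK 4.1.4.1, MACS2, STAR 2.7.5a and StringTie 2.0.6, with builds mm10 and dm6. Drosophila S2 cells were added to the chromatin, but the peak lists carry no spike-in scaling and no read counts, so their depth is unknown. In RNA-seq, summed coverage of the 24 h libraries was 0.325, 1.20 and 1.39 of the median library, and TT-SLAM-seq depth ran from 0.889 to 3.33 of the first DMSO library.

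Regions were chosen by the rule given, with gene starts from the StringTie Start, End and Strand columns. limma 3.58.1 (R 4.3.3, eBayes with a trend) was fitted on log2(value + 0.5) over 15 RNA-seq, 12 TT-SLAM-seq and 9 NPC and ESC libraries, for genes of at least 1 TPM or 0.5 FPKM in at least 3 libraries, and tested on simulated data. Called means an adjusted p below 0.05 and more than 2-fold. Shares of regions were compared by exact permutation over libraries. Super-enhancer and ERV positions are the study's lists. Named regions are the 10 highest promoter and distal ones, those nearest the rank limit and the 5 largest rises and falls. Named genes are the 5 largest rises and falls at 24 h whose groups do not overlap, the 10 with most distal regions and the members of the gene lists, and others are marked. Regions, lists and rules were chosen with earlier results of these data known. Alternatives were other rank limits, overlaps, windows, pseudocounts, filters, scalings and left-out libraries. The shREPEATS line, Hi-C and single-cell libraries were not used here. A withheld item is not reported here.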

Additional observations from a re-analysis of the deposited data

How the results depend on the processing

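The number of regions was set by the rule. It was 943 with the 5000 highest peaks, 5364 with 20000, 4511 ranked by -log10 q, 1151 with at least 0.5 of the peak overlapped, 2521 to 3655 leaving out a library (the highest without dTAG replicate 3) and 5365 without dTAG replicates 1 and 3. The distal share was 25.3%, 42.4%, 27.05%, 35.5%, 30.6% to 35.9% and 29.6% in that order, and 38.0% with starts of active genes, 37.4% from the summit, 25.3% at 5 kb and 26.5% with all transcript starts (the last, and the choices of regions without dTAG libraries, added after seeing the data).

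The MED23 difference over all shared regions was -17.0 points with 10000 peaks, -19.5 with all, -8.74 with the summit inside and -12.6 to -12.2 leaving out a library. The RNAPII difference was -3.25 with 2500 peaks, -17.2 with all, -0.0207 with the summit inside and -5.82 to -3.75. The H3K9me3 difference was -0.387 with 5000 peaks, -7.45 with all and -1.26 to -0.850. In regions chosen without dTAG replicate 3 the RNAPII difference was -7.13, without replicate 1 it was -6.73 (MED23 -13.04) and without both -10.6 (MED23 -12.7).

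Without a fold limit, 1397 promoter and 477 distal genes were called in RNA-seq (70.9% and 70.6%, against 67.9% of all genes). In TT-SLAM-seq 648 and 260 were called (31.6% and 52.1%, against 37.9% of all genes). A pseudocount of 0.1 gave 64 and 55 calls in TT-SLAM-seq, and 1 gave 9 distal calls. Regions chosen without dTAG replicate 3 gave 204 promoter calls in RNA-seq, and without both 273 and 109, with 1144 and 582 in NPCs. Leaving out a library gave 126 to 142 and 72 to 78 calls in RNA-seq, 33 to 61 and 20 to 27 in TT-SLAM-seq, and 515 to 534 and 296 to 322 in NPCs. Fits with the replicate number as a block gave 135 and 70, 42 and 23, and 545 and 319 calls. Libraries with the same number deviated together by r of -0.058 to 0.108, so the numbers were not taken to pair samples. Of 396 values for 36 named genes, none changed sign where the gene was called in the main fit. Changes of sign at genes without a call were not counted. Among the 396, 1 lost its call (Pou4f2 with a pseudocount of 1, -0.86) and 4 gained one when centred (Trim28, at -1.03, Sall4, Gdf3 and Fbxo15). Causes were not tested.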

Other observations

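The other distal regions, those not shared by all 6 libraries, were repeat-masked more often than the shared ones. At least 80% of the sequence was repeat-masked in 42.1% of the 3239 other distal regions and in 8.89% of the 787 shared ones, or 3.62% of the 718 outside the listed ERVs. The letters GATGGCG, on either strand, were in 41.9% of 300-base windows at the MED23 summit of other distal regions and in 3.77% of those of shared distal regions, and CCGGAAG in 28.4% and 5.58%. The share of repeat-masked regions among the distal ones of the 10000 highest peaks was 35.6%, 27.9% and 27.998% in DMSO and 24.2%, 31.8% and 13.5% after dTAG, lowest in dTAG replicate 3, which also limited the shared set most. In regions chosen without dTAG replicate 3, 22.1% of distal regions were repeat-masked to that extent. These values have no test, since regions of a library are not replicates.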
